A study of Mus musculus with 54 samples.

Results

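Zeb1, Zeb2, Snai1, Snai2, Twist1 and Twist2 are the Zeb, Snail and Twist transcription factors known for driving epithelial-to-mesenchymal transition (EMT). They were chosen by name and are 6 of the 20036 genes in the deposited expression table. All 6 were among the 14416 genes that passed the filter on low values (at least 1 TPM, the length-scaled share of a library that the authors deposited, in at least 2 of 54 libraries) and were tested. That level was reached by Snai1 in 54 libraries, Twist1 in 53, Zeb1 in 51, Snai2 in 37, Twist2 in 22 and Zeb2 in 19. Of the 6 wild-type libraries, it was reached by Snai1 and Twist1 in 6, by Zeb1 in 5, and by Zeb2, Snai2 and Twist2 in 2 each.

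In EMT, cells loosen their E-cadherin junctions and gain a migratory, mesenchymal state, as epiblast cells do when they pass through the primitive streak. Zeb and Snail proteins are zinc-finger repressors that bind E-box DNA motifs in epithelial genes such as Cdh1 (E-cadherin), while Twist proteins are basic helix-loop-helix factors that dimerise with E proteins. Ovol2 is a zinc-finger repressor known to hold Zeb1 and other EMT genes down in epithelial cells.

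Poly(A) RNA was sequenced from mouse embryonic stem cells (ESC), from epiblast-like cells (EpiLC) made from them, and from primordial germ cell-like cells (PGCLC) at day 2. All lines carry the strain label C57BL/6 X 129/SvJ, and each of the 27 groups, 9 lines at 3 stages, has 2 libraries. The lines are wild type (WT), Ovol1KO, Ovol2KO, Ovol3KO, TKO (not spelled out in the labels), and 4 transgenic lines named Cdh1-Tg, Ovol2a/2b-Tg, Ovol2b-Tg and Ovol2a-Tg. Their names refer to E-cadherin (Cdh1) and to Ovol2a, Ovol2b or both. Parental background, transgene promoter and number of clones are not stated for these lines in what was used here. Nothing in the labels says that the 2 libraries of a group came from separate cultures, so p-values measure the spread between libraries, which may be technical.

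Libraries held between 2.16 and 26.73 M reads (M, megareads), with a median of 8.65 M, as recovered from the TPM steps. In WT, summed naive pluripotency markers were 1680 to 1790 TPM in ESC and 68.9 to 74.0 in EpiLC, formative epiblast markers were 2190 to 2280 in EpiLC, and mesoderm markers were 2030 to 2120 in PGCLC. Germ cell markers in WT were 400 to 418 TPM in ESC, 49.6 to 52.4 in EpiLC and 201 to 217 in PGCLC. Their sum was lower in PGCLC than in ESC, so it does not set PGCLC apart. The cell type tags of 8 libraries differ from their titles (the PGCLC pair of Ovol2a-Tg and all Cdh1-Tg pairs), and groups follow the titles. The Cdh1-Tg libraries titled ESC held naive markers at 1310 to 1340 TPM, those titled EpiLC held formative markers at 2950 to 3020, and those titled PGCLC held mesoderm markers at 2340 to 2410. The PGCLC Ovol2a-Tg pair held mesoderm markers at 2030 to 2230 TPM. Ovol2 transcripts remained in the line labelled Ovol2KO: its PGCLC libraries had 4.74 and 6.68 TPM against a WT mean of 9.12, and its means were above WT in ESC (14.7 against 7.81) and EpiLC (34.1 against 11.1). Ovol3 in the PGCLC libraries labelled Ovol3KO was 7.25 and 9.84 TPM, against WT values of 9.39 and 9.66, while in EpiLC it was 5.66 and 5.8 against 10.4 and 13. Such gene-level values cannot check a deletion that leaves the transcript in place.

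RefSeq promoters were matched for 4 of the 5 members that rose in WT PGCLC, the fifth being Snai2, and are shown because they carry, or lack, the E-box that Zeb and Snail proteins bind. Each is the 250 bases before the RefSeq start on GRCm38.p6, 5′ to 3′ on the gene's strand, with CACCTG in capitals. They are chr2:167537945-167538194 (plus) for Snai1, chr12:33957421-33957670 (plus) for Twist1, chr1:91801211-91801460 (plus) for Twist2, and chr2:45117443-45117692 (minus) for the most upstream of 4 Zeb2 starts.
Snai1: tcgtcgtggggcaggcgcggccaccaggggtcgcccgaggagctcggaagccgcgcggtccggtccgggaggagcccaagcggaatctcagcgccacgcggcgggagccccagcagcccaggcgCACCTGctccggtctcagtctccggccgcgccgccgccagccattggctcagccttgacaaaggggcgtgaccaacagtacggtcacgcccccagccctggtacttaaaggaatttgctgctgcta
Twist1: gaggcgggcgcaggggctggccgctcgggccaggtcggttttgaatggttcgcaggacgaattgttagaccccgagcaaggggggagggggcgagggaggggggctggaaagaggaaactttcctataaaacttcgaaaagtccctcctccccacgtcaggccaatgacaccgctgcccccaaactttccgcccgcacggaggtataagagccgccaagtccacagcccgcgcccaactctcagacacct
Twist2: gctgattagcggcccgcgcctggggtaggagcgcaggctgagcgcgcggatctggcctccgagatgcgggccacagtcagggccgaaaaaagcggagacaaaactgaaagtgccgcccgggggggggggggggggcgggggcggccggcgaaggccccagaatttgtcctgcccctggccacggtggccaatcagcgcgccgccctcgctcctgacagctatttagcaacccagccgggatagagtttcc
Zeb2: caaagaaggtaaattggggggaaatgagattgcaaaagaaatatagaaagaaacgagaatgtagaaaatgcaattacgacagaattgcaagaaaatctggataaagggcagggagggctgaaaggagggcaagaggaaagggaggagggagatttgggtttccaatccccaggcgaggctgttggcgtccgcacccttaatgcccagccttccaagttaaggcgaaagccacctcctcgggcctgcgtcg
CACCTG, searched on both strands, occurs once in the Snai1 window, 126 bases before the start, and not in the other windows shown. It occurs in 5657 of 32851 RefSeq promoters of that length (17.2%). CCGTTA, a core found in Ovol binding motifs, was found in none of the windows shown and in 715 promoters (2.18%). The Zeb1 promoter is not among the windows shown, so neither a match nor the lack of one is given for it. A match is a description of the letters, not evidence of binding.

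In GENCODE vM21 (GRCm38), Zeb1 lies on chromosome 18 at 5591860 to 5775467 and Zeb2 on chromosome 2 at 44983632 to 45117395. Snai1 lies on chromosome 2 at 167538195 to 167542814 and Snai2 on chromosome 16 at 14705852 to 14709385. Twist1 lies on chromosome 12 at 33957671 to 33959829 and Twist2 on chromosome 1 at 91801461 to 91848028. Antisense transcripts overlap exons of Zeb1 (Gm10125), Zeb2 (Zeb2os and Gm27761) and Twist2 (Gm29100). The strand setting of the counting is not given, so reads of these 3 genes cannot be told apart from reads of their antisense partners.

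The first question was how the members behave in WT cells along the differentiation. Between WT ESC and EpiLC, 0 of 6 members were called by limma (adjusted p below 0.05 and a change of at least 1 on the log2 scale), where 20.6% of tested genes were called. At an unadjusted p below 0.05 the count was 1, and limma-voom on the recovered reads called 1, as did limma with a pseudocount of 0.1 TPM, in each case Zeb1. Zeb1 was 4.50 and 3.95 TPM in WT ESC and 1.81 and 1.97 in WT EpiLC. The 2 stages did not overlap, and the difference of -0.85 ± 0.20 (SE of log2(TPM + 1), limma adjusted p = 0.000314) stayed below the fold threshold. Changes are given on this log2(TPM + 1) scale throughout. It understates the change of low genes, most below about 1 TPM. It also does so at the Zeb1 means here, 4.22 TPM in WT ESC and 1.89 in WT EpiLC.

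From WT EpiLC to WT PGCLC, 5 of 6 members rose, where 13.5% of tested genes were called higher. Snai1, the Snail family repressor needed for gastrulation, rose from 3.31 and 3.56 TPM to 62.9 and 46.8, a change of 3.64 ± 0.31 (limma adjusted p = 2.41e-12). Zeb2, the Zeb factor also known as Sip1, rose from 0 and 0.129 TPM to 3.6 and 3.7, a change of 2.13 ± 0.17 (limma adjusted p = 5.53e-13). Neither gene's PGCLC libraries overlapped its EpiLC libraries. Twist1 rose from 1.79 and 2.36 TPM to 8.53 and 7.53, a change of 1.56 ± 0.29 (limma adjusted p = 1.62e-05). Snai2, also known as Slug, rose by 1.49 ± 0.38 (limma adjusted p = 0.00106), from 0.580 and 0.359 TPM to 5.24 and 1.72. Twist2 rose by 1.04 ± 0.26 (limma adjusted p = 0.000859), from 0 and 0.183 TPM to 1.28 and 1.20, which are only 4 and 5 reads. The Snai2 call rested on the first PGCLC WT library (0.89, adjusted p = 0.0882 without it), and Twist2 fell under the fold threshold without the first EpiLC WT library (0.92). Zeb1 went the other way, to 1.02 and 0.379 TPM (14 and 7 reads), but its difference of -0.79 ± 0.20 (limma adjusted p = 0.000698) was under the fold threshold. Without the first PGCLC WT library it passed, at -1.07, and limma-voom gave -1.70. In bulk RNA, fewer cells of a type and less RNA per cell cannot be told apart.

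**Figure D1:**
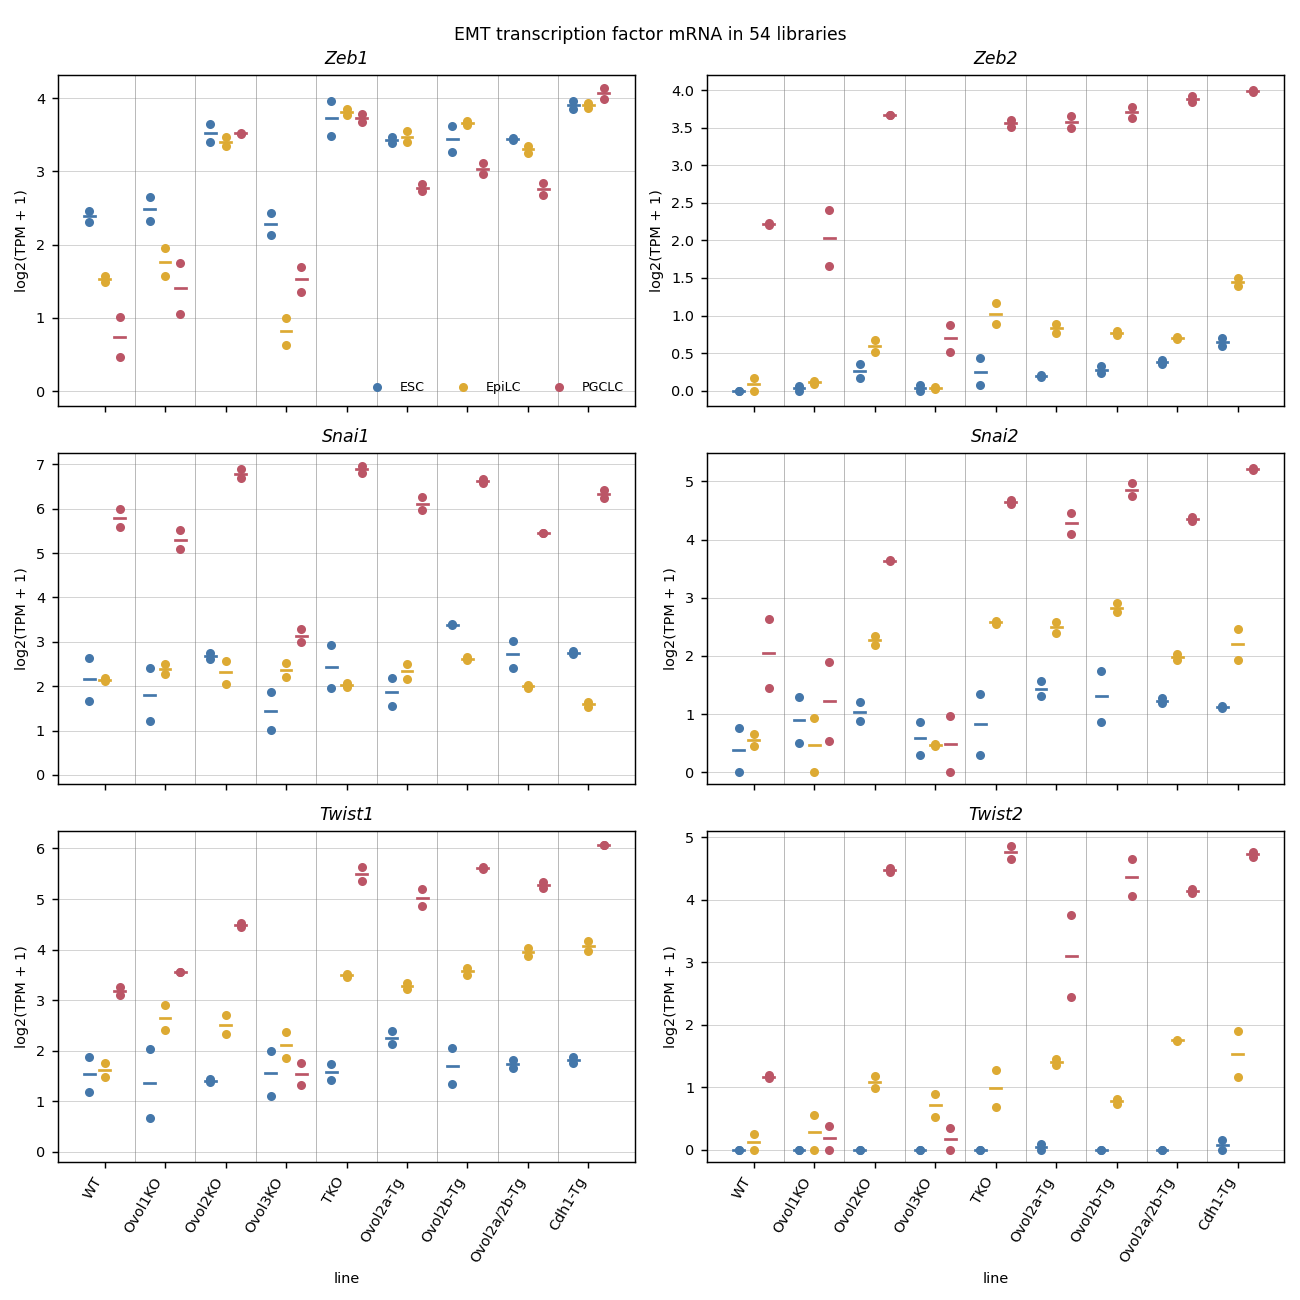
TPM of each member (log2(TPM + 1) axis) in all 54 libraries, grouped by stage and line, with each point 1 library and each bar the mean of 2. Zeb1 is high at every stage in the same 6 lines. All 6 members have their highest library in PGCLC, but for Zeb1 the stages are close (14.6 TPM in ESC, 14.3 in EpiLC and 16.6 in PGCLC).

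Among undifferentiated ESC, the members were compared between each line and WT. Of 48 comparisons (6 members in 8 lines), 6 were called, and all were rises of Zeb1. The share of tested genes called higher was 0.77% in Ovol2KO, 1.6% in TKO, 2% in Cdh1-Tg, 1.48% in Ovol2a/2b-Tg, 1.73% in Ovol2b-Tg and 2.5% in Ovol2a-Tg, each with 1 member called. In Ovol1KO (0.541% called in either direction) and Ovol3KO (1.85%), 0 of 6 members were called, with 0 at an unadjusted p below 0.05 and 0 by limma-voom. Zeb1, a repressor of E-cadherin, was 4.50 and 3.95 TPM in WT, 5.30 and 4.01 in Ovol1KO, and 4.37 and 3.37 in Ovol3KO. It was 9.56 and 11.5 TPM in Ovol2KO, 14.6 and 10.2 in TKO, and 14.5 and 13.4 in Cdh1-Tg. The Ovol2 transgenic lines had 9.41 and 10.1 TPM (Ovol2a-Tg), 8.60 and 11.3 (Ovol2b-Tg) and 10 and 9.71 (Ovol2a/2b-Tg). The lowest of these 12 libraries (8.60) was above the highest of the other 6 (5.30). The rise was 1.14 ± 0.19 in Ovol2KO (limma adjusted p = 0.00122), 1.34 in TKO (0.000254) and 1.52 in Cdh1-Tg (4.68e-05). In the 3 Ovol2 transgenic lines it was 1.05 to 1.06 (limma adjusted p 0.0012 to 0.00138), close to the threshold. Without the second ESC WT library these 3 came to 0.97, 0.98 and 0.99, Ovol2b-Tg came to 0.88 without its second library, and in fits of only the 2 groups compared, Ovol2KO, TKO and Ovol2b-Tg had adjusted p of 0.0695, 0.0529 and 0.0777.

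The other members were low in ESC. Zeb2 was 0 in both WT libraries, and its highest library was 0.620 TPM in Cdh1-Tg. The Cdh1-Tg mean of 0.563 TPM was at least 7.37-fold higher than WT, taken at the floor of 3 reads over the group (0.0764 TPM). Twist2 was 0 in 16 of 18 ESC libraries. Snai2 ran from 0 to 2.34 TPM, Twist1 from 0.595 to 4.21 and Snai1 from 1.03 to 9.50. Snai1 in Ovol2b-Tg (9.44 and 9.50 TPM, 1.23, adjusted p = 0.0524) and Snai2 in Ovol2a-Tg (1.05, adjusted p = 0.0502) missed the limma threshold. Snai1 there passed without the first ESC WT library (1.71) and Snai2 without the second (1.43), and both passed in the fit of all 54 libraries (adjusted p = 0.00237 and 0.03). Zeb2 in Cdh1-Tg was called with pseudocounts of 0.5 TPM (1.09) and 0.1 TPM (2.72). Limma-voom on the recovered reads called 16 of 48, among them Zeb2 in 6 lines (2.56 to 4.44).

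Among EpiLC, 22 of 48 comparisons with WT were called, all of them rises. By line, 1 member rose in Ovol1KO (where 0.312% of tested genes were called higher), 2 in Ovol2KO (0.569%), 3 in TKO (1.46%) and 5 in Cdh1-Tg (3.62%). There were 4 in Ovol2a/2b-Tg (2.23%), 3 in Ovol2b-Tg (1.15%) and 4 in Ovol2a-Tg (1.52%). Ovol3KO had 0, with 2.85% of tested genes called in either direction. For Ovol3KO the count was 3 at an unadjusted p below 0.05 and 1 by limma-voom. Zeb1 was again higher in the same 6 lines: 10.1 and 9.12 TPM in Ovol2KO, 12.6 and 13.4 in TKO, and 13.6 and 14.3 in Cdh1-Tg, against 1.81 and 1.97 in WT. Zeb1 in the Ovol2 transgenic lines was 9.54 and 10.7 (Ovol2a-Tg), 11.4 and 11.9 (Ovol2b-Tg) and 8.54 and 9.15 (Ovol2a/2b-Tg). Ovol1KO (1.98 and 2.88) lay just above WT and Ovol3KO (0.996 and 0.547) below it, and no library of the 6 lines overlapped these 3 groups. The rise was 1.88 ± 0.15 in Ovol2KO (limma adjusted p = 1.32e-06), 2.28 in TKO (1.13e-07) and 2.37 in Cdh1-Tg (2.04e-08), and 1.77 to 2.13 in the Ovol2 transgenic lines. Zeb1 in Ovol3KO differed by -0.72 (limma adjusted p = 0.00248), under the fold threshold, which it passed with a pseudocount of 0.1 TPM (-1.24) and by limma-voom (-1.35).

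Snai2 rose in the same 6 lines in EpiLC, by 1.43 to 2.28 ± 0.25. It was 0.580 and 0.359 TPM in WT (2 and 6 reads), 4.09 and 3.57 in Ovol2KO, 4.87 and 5.09 in TKO, and 6.48 and 5.78 in Ovol2b-Tg. Each of those libraries was above both WT libraries, with limma adjusted p of 0.0004 in Ovol2KO, 4.87e-05 in TKO and 1.7e-05 in Ovol2b-Tg. Twist1 rose in Ovol2a/2b-Tg (2.33), Ovol2b-Tg (1.96), TKO (1.88), Ovol2a-Tg (1.67) and Cdh1-Tg (2.46 ± 0.19, limma adjusted p = 1.46e-07). In Cdh1-Tg it was 14.7 and 17 TPM against 1.79 and 2.36 in WT. It was called in Ovol1KO too (4.28 and 6.45 TPM, 1.03, adjusted p = 0.00859), and missed the fold threshold in Ovol2KO (5.49 and 4.06 TPM, 0.91, adjusted p = 0.00903), which it passed with a pseudocount of 0.5 TPM (1.03) and without the second EpiLC WT library (1.04) or the second Ovol2KO library (1.08). The Ovol1KO call was lost without the first EpiLC WT library (0.90, adjusted p = 0.0973), without the second Ovol1KO library (0.79, 0.0702), with quantile scaling (0.93), by limma-voom (adjusted p = 0.143) and in a fit of those 2 groups (0.34).

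Twist2 rose in EpiLC of Ovol2a-Tg (1.28 ± 0.26, limma adjusted p = 0.00273), Ovol2a/2b-Tg (1.63, 0.000143) and Cdh1-Tg (1.41, 0.000436), to levels between 1.23 and 2.73 TPM. In Ovol2KO (0.975 and 1.26 TPM, 0.96, adjusted p = 0.0297) and TKO (0.606 and 1.42 TPM, 0.86, adjusted p = 0.0321) it was under the fold threshold, and it was called in both with a pseudocount of 0.5 TPM (1.46 and 1.32). With a pseudocount of 0.1 TPM it was called in Ovol2KO (2.85), TKO (2.62), Ovol2b-Tg (2.26) and Ovol3KO (2.09). Zeb2 was called only in Cdh1-Tg, at 1.63 and 1.84 TPM against 0 and 0.129 (1.36 ± 0.15, limma adjusted p = 3.92e-06). It was 0.94 in TKO (0.849 and 1.24 TPM, adjusted p = 0.000476) and 0.51 to 0.74 in Ovol2KO and the Ovol2 transgenic lines. With a pseudocount of 0.1 TPM these 5 lines were also called for Zeb2, as by limma-voom (2.42 to 3.38). Snai1 was called in 0 of the 8 lines, with differences from -0.55 to 0.48 and levels of 1.90 to 5.34 TPM in all EpiLC libraries.

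**Figure D2:**
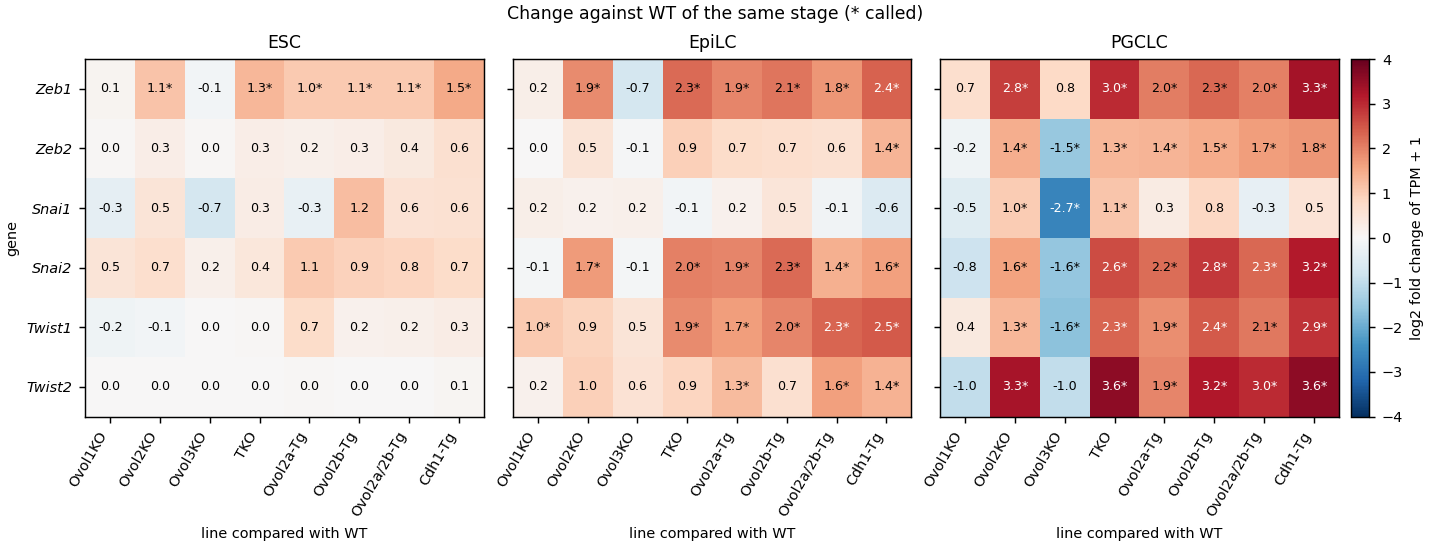
Log2 difference from WT (log2(TPM + 1) scale) of each member in each line at each stage, with the colour and number giving the difference and a star marking each limma call. Calls increase from ESC to EpiLC to PGCLC, where Ovol2KO and TKO are positive for all 6 members and Ovol3KO is negative for 5.

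At day 2 of PGCLC culture, 36 of 48 comparisons with WT were called, 32 of them rises and 4 falls, and the falls were all in Ovol3KO. All 6 members rose in Ovol2KO (4.11% of tested genes called higher) and in TKO (5.58%). In Cdh1-Tg (5.56%), Ovol2a/2b-Tg (4.68%), Ovol2b-Tg (5.16%) and Ovol2a-Tg (2.09%), 5 rose, the exception being Snai1. In Ovol3KO (8.5% called lower), 4 fell. In Ovol1KO (0.666% called in either direction) limma called 0 of 6, with 4 at an unadjusted p below 0.05 and 0 by limma-voom. Without the second Ovol1KO library Zeb1 (1.02) and Snai2 (-1.5) were called there, and Twist2 was called with pseudocounts of 0.5 TPM (-1.46) and 0.1 TPM (-2.75).

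Zeb1 was 1.02 and 0.379 TPM in WT PGCLC (0.697 ± 0.45, SD, n = 2) against 10.5 and 10.4 in Ovol2KO, 12.7 and 11.8 in TKO, and 14.9 and 16.6 in Cdh1-Tg. The Ovol2 transgenic lines lay between, at 5.61 and 6.12 TPM (Ovol2a-Tg), 7.64 and 6.78 (Ovol2b-Tg) and 6.17 and 5.40 (Ovol2a/2b-Tg). No library of these 6 lines overlapped WT, Ovol1KO (2.37 and 1.08) or Ovol3KO (1.56 and 2.24). The rise was 2.78 ± 0.23 in Ovol2KO (limma adjusted p = 5.69e-07), 2.98 in TKO (1.63e-07) and 3.33 in Cdh1-Tg (5.46e-08). In linear TPM, the means were 15, 17.5 and 22.6 times the WT mean, and 8.29 to 10.3 times in the Ovol2 transgenic lines. The WT values rest on 14 and 7 reads: without the first WT library the ratios were 27.6 in Ovol2KO, 32.2 in TKO and 41.6 in Cdh1-Tg, with 15.3 to 19 in the Ovol2 transgenic lines, and without the second they were 10.2, 12 and 15.4.

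Zeb2 was 3.6 and 3.7 TPM in WT PGCLC, 11.7 in both Ovol2KO libraries, and 10.4 and 11.2 in TKO. It was 14.8 and 15.1 TPM in Cdh1-Tg, 13.4 and 14.2 in Ovol2a/2b-Tg, 11.4 and 12.7 in Ovol2b-Tg, and 10.3 and 11.6 in Ovol2a-Tg. Every library of the 6 lines was above the WT pair, with rises from 1.34 in TKO (limma adjusted p = 0.000105) to 1.77 in Cdh1-Tg (7.34e-06), SE 0.20. In Ovol3KO Zeb2 fell to 0.836 and 0.435 TPM, a change of -1.52 (limma adjusted p = 2.2e-05), which is a 5.74-fold lower linear mean.

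Snai1 was 62.9 and 46.8 TPM in WT PGCLC, 102 and 118 in Ovol2KO, and 124 and 111 in TKO. Both lines lay above WT, with rises of 1.0 ± 0.16 (limma adjusted p = 0.000226) and 1.10 (6.54e-05). These rises were at the fold threshold: without the second WT library they were 0.79 and 0.89, and Ovol2KO gave 0.89 without its second library, 0.95 with quantile scaling and 0.94 by limma-voom. The transgenic lines were not called: Snai1 was 101 and 94.5 TPM in Ovol2b-Tg (0.83, adjusted p = 0.000904), 84.3 and 75.1 in Cdh1-Tg (0.54, 0.013), 61.9 and 75.4 in Ovol2a-Tg (0.33, 0.195), and 43.0 and 42.5 in Ovol2a/2b-Tg (-0.34, 0.112). Ovol2b-Tg passed, at 1.04, without the first WT library. In Ovol3KO Snai1 fell to 6.98 and 8.72 TPM, a change of -2.65 (limma adjusted p = 1.27e-08) and a 6.99-fold lower linear mean.

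Snai2 was 5.24 and 1.72 TPM in WT PGCLC, 11.5 and 11.4 in Ovol2KO, 23.5 and 24.6 in TKO, and 36.6 and 35.7 in Cdh1-Tg. Snai2 in the Ovol2 transgenic lines was 16.2 and 20.9 TPM (Ovol2a-Tg), 25.9 and 30.3 (Ovol2b-Tg) and 19.9 and 19 (Ovol2a/2b-Tg). Every library of the 6 lines was above the WT pair, whose 2 libraries were far apart, and the rises ran from 1.6 ± 0.41 in Ovol2KO (limma adjusted p = 0.0093) to 3.17 in Cdh1-Tg (3.09e-05). The Ovol2KO call was lost without the second WT library (1.0, adjusted p = 0.128) and without its own second library (adjusted p = 0.051). With a pseudocount of 0.1 TPM, Ovol2KO, Ovol2a-Tg and Ovol2a/2b-Tg missed the threshold (adjusted p 0.17, 0.104 and 0.0527). In Ovol3KO Snai2 was 0.958 and 0 TPM (16 and 0 reads), a change of -1.56 (limma adjusted p = 0.00617) that was lost without the first WT library (-0.96, 0.0986) or without the second Ovol3KO library (-1.07, 0.0848).

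Twist1, a regulator of mesoderm and neural crest, was 8.53 and 7.53 TPM in WT PGCLC, 20.9 and 22.0 in Ovol2KO, and 39.9 and 48.8 in TKO. It was 66.5 and 66 TPM in Cdh1-Tg, 39.2 and 36.3 in Ovol2a/2b-Tg, 47.1 and 48.9 in Ovol2b-Tg, and 28 and 35.6 in Ovol2a-Tg. None overlapped WT, and the rises ran from 1.32 ± 0.15 in Ovol2KO (limma adjusted p = 9.97e-06) to 2.90 in Cdh1-Tg (4.85e-09). In Ovol3KO Twist1 fell to 2.36 and 1.5 TPM (-1.64, limma adjusted p = 4.86e-07), 4.16-fold below WT in linear TPM.

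Twist2, the close relative of Twist1, was 1.28 and 1.20 TPM in WT PGCLC (9 reads in all), 21.7 and 20.8 in Ovol2KO, 24.2 and 28.0 in TKO, and 24.8 and 26.2 in Cdh1-Tg. Twist2 in the Ovol2 transgenic lines was 4.46 and 12.5 TPM (Ovol2a-Tg), 24.1 and 15.7 (Ovol2b-Tg) and 16.3 and 17.1 (Ovol2a/2b-Tg). Every library of these lines was above WT, and the rises were 3.31 ± 0.31 in Ovol2KO (limma adjusted p = 1.93e-06), 3.59 in TKO (4.92e-07), 3.56 in Cdh1-Tg (5.18e-07) and 1.94 in Ovol2a-Tg (0.000527). Twist2 in Ovol3KO, 0.275 and 0 TPM, differed by -0.99 (adjusted p = 0.0164) and was not called, nor was Zeb1, at 0.79 (0.0109). Both were called with a pseudocount of 0.5 TPM (-1.48 and 1.04) or 0.1 TPM (-2.79 and 1.43), and limma-voom called Zeb1 (1.49). Zeb1 was also called without the first WT library (1.06), and Twist2 without the first Ovol3KO library (-1.16) and with quantile scaling (-1.03).

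Beside these values, summed markers of other cell types differed between lines, and their part in the result was not tested. Mesoderm markers (12 genes) summed to 2030 to 2120 TPM in WT PGCLC. They were higher in TKO (3110 to 3170), Ovol2KO (2880 to 3200), Ovol2b-Tg (2890 to 2940) and Cdh1-Tg (2340 to 2410), overlapped WT in Ovol2a-Tg (2030 to 2230), and were lower in Ovol1KO (1180 to 1910), Ovol2a/2b-Tg (1320 to 1530) and Ovol3KO (114 to 229). Zeb1, Zeb2, Snai2, Twist1 and Twist2 were called higher in both Ovol2a-Tg and Ovol2a/2b-Tg, and how this relates to the mesoderm sums was not tested. Fibroblast and feeder markers (10 genes) were 33.1 to 44.6 TPM in WT, where Lum and Postn were at 0, and 12.2 to 12.6 in Ovol3KO. In the 6 lines where members rose they ran from 120 in Ovol2a-Tg to 380 in Cdh1-Tg, with 176 to 182 in Ovol2KO (Dcn at 0) and 372 to 378 in TKO (Dcn and S100a4 at 0). Trophoblast markers (7 genes) were 192 to 237 TPM in WT, 54.6 to 62.2 in Ovol3KO, and from 462 in Ovol2a-Tg to 1510 in TKO in those 6 lines. Elf5 was at 0 in WT and in those lines except Cdh1-Tg, and the list shares Eomes and Hand1 with the mesoderm list. Its genes above 1 TPM numbered 6 in WT and Ovol2a/2b-Tg and 5 in the rest of those lines. Germ cell markers (8 genes) were 201 to 217 TPM in WT, 80.5 to 148 in those 6 lines and 382 to 393 in Ovol3KO. In EpiLC, fibroblast markers were 38.6 to 42.2 TPM in WT, 58.3 to 61.5 in Ovol2KO, 55.7 to 58.9 in TKO, 56.3 to 60.2 in Cdh1-Tg and 51.2 to 52.6 in Ovol2b-Tg. They were 43.9 to 44.7 in Ovol2a-Tg and overlapped WT in Ovol2a/2b-Tg (38.9 to 48.3).

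TKO and Ovol2KO differed at 1 of 6 members in PGCLC (0.714% of tested genes called higher): Twist1 was higher in TKO by 1.01 ± 0.15 (limma adjusted p = 0.000774). Without the first Ovol2KO library the difference was 0.97, without the second TKO library it was 0.87, and quantile scaling put it just under the threshold. Snai2 was 1.01 ± 0.41 higher with a limma adjusted p of 0.178, and limma-voom (1.08, 0.00965) and a fit of those 2 groups (0.0302) called it.

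The transgenic lines were then compared with TKO in PGCLC, as lines with high Ovol2 or E-cadherin transcript against one with low levels of both. Ovol2 averaged 3300 TPM in Ovol2a/2b-Tg, 884 in Ovol2a-Tg, 320 in Ovol2b-Tg, 1.18 in TKO and 1.46 in Cdh1-Tg. Of 24 comparisons 2 were called, both lower in the transgenic line. By line, 1 member was lower in Ovol2a-Tg (1.41% of tested genes called lower) and 1 in Ovol2a/2b-Tg (4.04%), with 0 called in Ovol2b-Tg (0.354% in either direction) and 0 in Cdh1-Tg (2.3%). For Ovol2b-Tg and Cdh1-Tg, 1 and 2 members had an unadjusted p below 0.05, and limma-voom called 0 in both. For Ovol2a-Tg and Ovol2a/2b-Tg, 4 and 2 members had an unadjusted p below 0.05, and limma-voom called 1 and 2. Twist2 was lower in Ovol2a-Tg by -1.65 (limma adjusted p = 0.00244), and Snai1 was lower in Ovol2a/2b-Tg by -1.44 (7.23e-06), its libraries (43.0 and 42.5 TPM) not overlapping those of TKO (124 and 111). The Twist2 call was lost with a pseudocount of 0.1 TPM (-1.79, adjusted p = 0.0843) and in a fit of those 2 groups (0.0645), and without the first Ovol2a-Tg library the difference was -1.0 (0.0388). Zeb1 was -0.94 in Ovol2a-Tg (limma adjusted p = 0.0116) and -0.96 in Ovol2a/2b-Tg (0.00399), short of the fold threshold, which the latter passed at a pseudocount of 0.1 (-1.07) and by limma-voom (-1.06). Zeb2 and Snai2 differed by 0.57 or less in either direction in all 4 lines. In ESC and EpiLC, comparisons chosen after seeing the data called 0 of 24 each against TKO by limma, with 2 and 11 at an unadjusted p below 0.05. In ESC the shares of tested genes called were 0.659% for Cdh1-Tg, 1.96% for Ovol2a/2b-Tg, 0.763% for Ovol2b-Tg and 3.97% for Ovol2a-Tg, and in EpiLC, in that order, 2.86%, 4.57%, 0.146% and 0.846%.

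**Figure D3:**
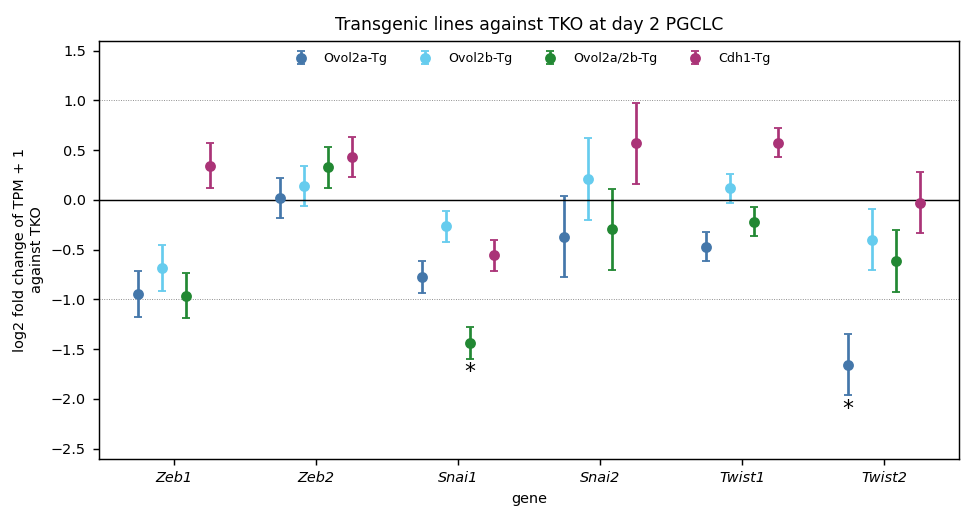
Log2 difference from TKO in PGCLC (log2(TPM + 1) scale) of each member in the 4 transgenic lines, with bars showing the SE and stars the limma calls. All 24 points but 2 lie within 1 of zero, the exceptions being Snai1 in Ovol2a/2b-Tg at -1.44 and Twist2 in Ovol2a-Tg at -1.65.

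The Ovol2 transgenic lines were compared with each other in PGCLC. Of 18 comparisons 3 were called. Twist2 was lower in Ovol2a-Tg than in Ovol2b-Tg (-1.26, limma adjusted p = 0.0309, 0.562% of tested genes called lower) and higher in Ovol2a/2b-Tg than in Ovol2a-Tg (1.04, 0.0294, 1.32% called higher). Without the first Ovol2a-Tg library (4.46 TPM) the differences were -0.60 (0.482) and 0.39 (0.391). The first was also lost without either Ovol2b-Tg library (0.165 and 0.0552) and the other without either Ovol2a/2b-Tg library (0.0991 and 0.15). With a pseudocount of 0.1 TPM their adjusted p were 0.286 and 0.263. Snai1 was lower in Ovol2a/2b-Tg than in Ovol2b-Tg (-1.17, limma adjusted p = 8.69e-05, 2.8% called lower).

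E-cadherin (Cdh1) transcript and the members can be set side by side in PGCLC. Cdh1 averaged 316 ± 5.7 TPM (SD, n = 2) in WT, 38.8 in Ovol2KO, 20.6 in TKO, 56.4 in Ovol2b-Tg, 94.3 in Ovol2a-Tg, 174 in Ovol2a/2b-Tg, 352 in Ovol3KO and 563 in Cdh1-Tg. Cdh1-Tg had the highest Cdh1 of the 9 PGCLC groups, and of all 27 groups its PGCLC had the highest Zeb1 (15.8 ± 1.2 TPM), Zeb2 (14.9 ± 0.22), Snai2 (36.2 ± 0.65) and Twist1 (66.3 ± 0.38). For Zeb1, Zeb2, Snai2 and Twist1 the next group in order did not overlap it. Snai1 was highest in TKO (118 ± 9.5 TPM), which overlapped Ovol2KO (110 ± 12). Twist2 was highest in TKO (26.1 ± 2.7 TPM), overlapping Cdh1-Tg (25.5 ± 1.0).

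**Figure D4:**
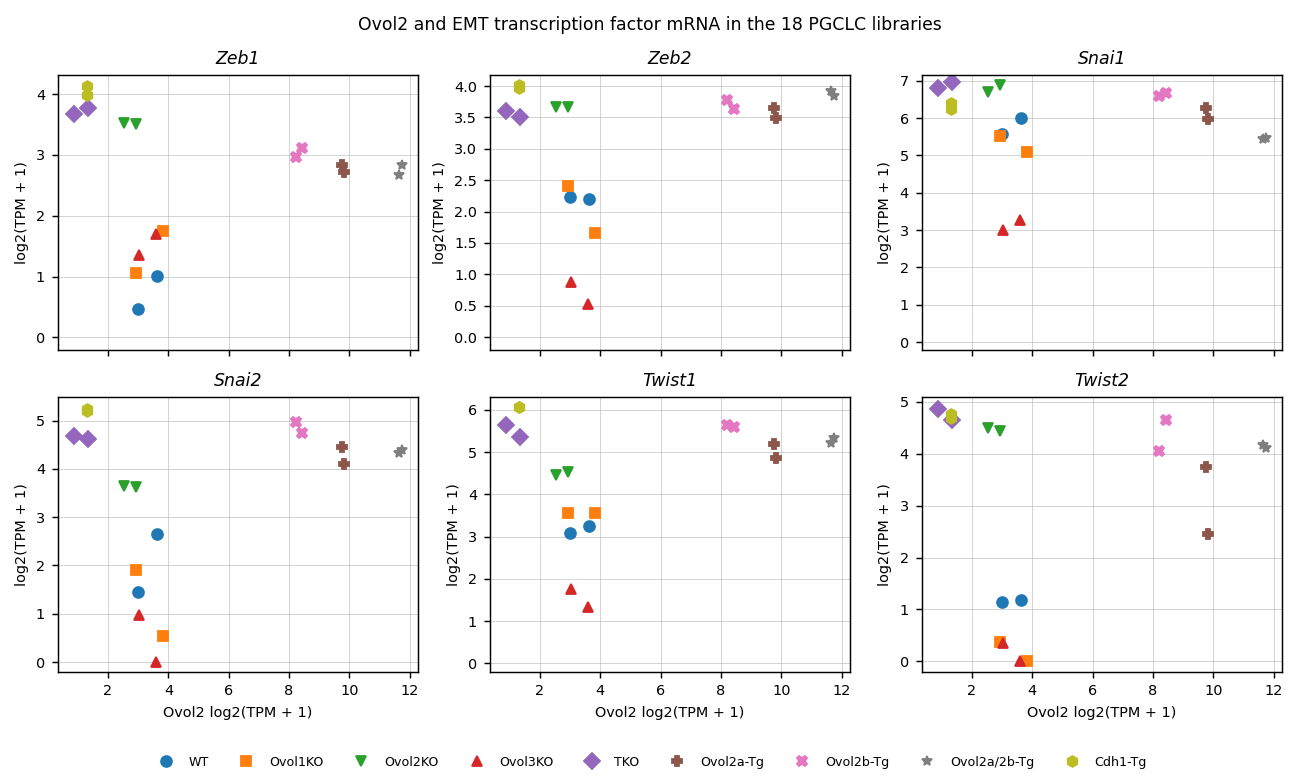
Ovol2 (x axis) against each member (y axis), both as log2(TPM + 1), in the 18 PGCLC libraries, with 1 point for each library and a colour and shape for each line. The Ovol2 transgenic lines average 320 to 3300 TPM of Ovol2. Zeb1 in them (5.4 to 7.64 TPM) lies above every WT library and below every Ovol2KO and TKO library (10.4 to 12.7 TPM).

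Within lines, the step from EpiLC to PGCLC was examined as for WT. Of 48 comparisons in the other 8 lines, 32 were called: Snai1 and Zeb2 in 7, Snai2, Twist1 and Twist2 in 6, and Zeb1 in 0. Ovol3KO had 0 of 6 called (12.8% of tested genes called in either direction), with 3 at an unadjusted p below 0.05 and 2 by limma-voom, and Ovol1KO had 2 (10.6% called higher), Zeb2 (1.92) and Snai1 (2.91). The other lines had 5 each, where 14.6% of tested genes were called higher in Ovol2KO, 14.5% in TKO, 14.2% in Cdh1-Tg, 16.2% in Ovol2a/2b-Tg, 14.1% in Ovol2b-Tg and 11.7% in Ovol2a-Tg. In those 6 lines Snai1 rose by 3.45 to 4.86, Zeb2 by 2.53 to 3.19 and Twist2 by 1.70 to 3.78. Zeb1 differed by -0.69 to 0.71 between the 2 stages over the 8 lines. With a pseudocount of 0.1 TPM, 3 members were called in Ovol3KO, Zeb1 (1.23), Zeb2 (2.51) and Twist2 (-1.89), Twist1 was called in Ovol1KO (1.02), and the Snai2 calls were lost in Ovol2KO (adjusted p = 0.148) and Ovol2a-Tg (0.0734). Limma-voom called Zeb1 (1.13) and Zeb2 (4.63) in Ovol3KO and Twist1 in Ovol1KO (1.06). Leaving out 1 library also called Snai2 in Ovol1KO (1.22 without the first EpiLC library and 1.43 without the first PGCLC library) and Twist1 (1.16 without the second EpiLC library).

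The difference between a line's effect in PGCLC and its effect in EpiLC was tested directly. By line, 0 members were called in Ovol1KO (0.576% of tested genes called) and Ovol2a-Tg (3.01%), each with 1 at an unadjusted p below 0.05 and 0 by limma-voom. There was 1 in Ovol2KO (7.71%) and in Ovol2b-Tg (7.60%), 2 in TKO (9.41%), Ovol2a/2b-Tg (7.07%) and Cdh1-Tg (9.61%), and 6 in Ovol3KO (16.1%). In Ovol3KO the effect on Snai1 was 2.86 lower in PGCLC than in EpiLC, and that on Zeb1 was 1.5 higher. Values near 0 TPM in EpiLC make several of these differences depend on the pseudocount, as the closing values show.

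Other genes of the pathway were counted from lists of known EMT genes. In the WT step from EpiLC to PGCLC, 15 of 24 mesenchymal genes rose, where 13.5% of all tested genes were called higher (median 1.67, against 0.148 for all tested genes) and 0 fell. In TKO against WT PGCLC, 5.58% of all tested genes were called higher and 4.95% lower. Of 28 epithelial genes known as Zeb or Snail targets, 0 rose and 21 fell, with a median difference of -2.35 where the median of all tested genes was 0.032. Cldn7 and Cldn6, which build tight junctions, fell by 6.34 and 6.31, and Esrp1, an epithelial splicing regulator, fell by 5.03. Of 24 mesenchymal genes, 16 rose and 0 fell (median 1.33), among them Col1a1, a fibrillar collagen (4.48), and Tnc, a matrix glycoprotein (3.19). Of 19 TGF-beta, BMP and WNT inputs, 8 rose and 3 fell (median 0.74), with Bmp4, a ligand that induces germ cells and mesoderm, at 2.84 and Wnt5a at 2.43. Of 12 regulators that oppose EMT factors, 0 rose and 8 fell (median -1.46), among them Grhl2 at -2.65 and Ovol2 at -2.20. Ovol2 is also named in the labels of other lines, and TKO is not spelled out. Its fall may therefore be the alteration itself rather than a response, which was not tested. Of 11 other EMT factors, 2 rose (Prrx2 at 1.98 and Foxc1 at 1.10) and 1 fell (Snai3 at -2.13), and of 18 corepressors and dimer partners 1 rose (Smad3 at 1.20) and 1 fell (Id4 at -2.44).

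The same epithelial list had 21 falls in Ovol2KO (median -2.26), where 4.07% of tested genes were called lower. It had 19 in Cdh1-Tg (median -2.19, 4.3% of tested genes called lower) and 16 falls and 1 rise in Ovol2a/2b-Tg (median -1.11, 2.95%). The mesenchymal list had 11, 14 and 12 rises in these lines, where 4.11%, 5.56% and 4.68% of tested genes were called higher. In Ovol3KO, 14 of the 24 mesenchymal genes fell (median -1.40, against -0.115 for all genes), where 8.5% of tested genes were called lower. In that line 2 epithelial genes rose, where 4.34% of tested genes were called higher, and 4 fell. Ovol2a/2b-Tg against TKO had 16 epithelial genes higher (median 1.20, 4.33% of tested genes called higher), and 7 mesenchymal genes lower (4.04%) and 2 higher. Its Cdh1 (3.03 higher) and Epcam (2.26 higher) were above TKO, while among the 6 members only Snai1 was called lower. Zeb1, at a mean of 5.79 TPM against 12.2 in TKO, was just short of the fold threshold.

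Across the 27 group means of log2(TPM + 1), which share stages and libraries, the genes most like each member were named by Pearson r. Zeb1 was nearest Myl4 (0.79), Wdr37 (0.78) and Lix1l (0.77). Zeb2 was nearest Lama4, Crb2 and Pmp22 (0.99 each), and Snai1 was nearest Cdx2, Cd274 and Sprr2a3 (0.98 each). Snai2 was nearest Twist1 (0.94), Twist2 and Gnb4 (0.93 each). Twist1 was nearest Cd44, Col4a2 and Shank3 (0.97 each), and Twist2 was nearest Draxin (0.98), Adgra3 and Dlk1 (0.97 each). Among the members, pairs without Zeb1 had r of 0.75 to 0.94 over the 27 groups and pairs with Zeb1 had -0.01 to 0.44. Over the 9 lines within a stage the ranges were different: in PGCLC, pairs with Zeb1 had 0.64 to 0.92, which overlapped the 0.77 to 0.97 of pairs without it. In EpiLC, Zeb1 had 0.69 to 0.95 with Zeb2, Snai2, Twist1 and Twist2 and -0.31 with Snai1, while Snai1 had -0.58 to -0.1 with the other 4. In ESC, pairs with Zeb1 had 0.43 to 0.86 and pairs without it 0.03 to 0.67. Several of these ESC values rest on few reads. Twist2 was 0 in 16 of 18 ESC libraries and had at most 1 read, and Zeb2 and Snai2 each had 0 to 3 reads in 8 libraries.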

How the data were processed

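The authors deposited a table of TPM values, per the labels. The submitters' processing notes name HISAT2, featureCounts and edgeR as tools and mm10 as the build. RNA was poly(A)-selected and made into libraries with a directional kit, per the labels' protocols. Tool versions, the annotation and how strand was handled are not given there. TPM show shares of the mRNA, not amounts per cell. Whole reads were recovered for all 17973 genes above 0 (tolerance 0.01 reads) and give the depth per library.

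Groups were taken from sample titles. Genes with at least 1 TPM in at least 2 libraries were kept (14416 of 20036). Differences were tested with limma 3.58.1 in R 4.3.3 (trend, robust) on log2(TPM + 1), one fit per stage for comparisons within a stage (9 residual degrees of freedom) and one fit of all 54 libraries for comparisons between stages (27), with Benjamini-Hochberg adjustment over all tested genes. A call needs adjusted p below 0.05 and a log2 change of at least 1. The script was tested on simulated data. The columns of the 2 EpiLC Ovol2b-Tg libraries could be matched to their group only.

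The 6 members and the gene lists were chosen with earlier results of these data known, and the lists are therefore no independent evidence. Members are named in every comparison, other list genes by size of change in TKO against WT in PGCLC (up to 4 a list), and for each member the 3 genes most like it over 27 groups. Ovol1, Ovol2, Ovol3, Cdh1, Cdh2, Vim and Epcam may be named where a result turns on them; Epcam was chosen after its values were seen. Alternatives changed the pseudocount, the filter, the scaling, the variance model, the libraries in the fit, the replicate block and each library in turn, or used limma-voom on the recovered reads. Averaging the EpiLC Ovol2b-Tg pair as 1 library and comparing transgenic lines with TKO in ESC and EpiLC were chosen after seeing the data. Read counts of 2 libraries differed beyond counting noise in every group (chi-square per degree of freedom 1.05 to 10.43, median 2.34). The EpiLC Ovol2b-Tg pair had the lowest, 1.05, close to counting noise alone, so its 2 libraries may not be independent. Over the alternatives, averaging that pair included, its rises over WT were 1.97 to 2.56 (Zeb1), 2.13 to 3.72 (Snai2) and 1.8 to 2.35 (Twist1). Lines carry different label styles, and any batch tied to a line cannot be told apart from it.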

Additional observations from a re-analysis of the deposited data

Results flagged for a closer look

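The effect of a line on a member differed between PGCLC and EpiLC, by limma's test of the difference itself, in 14 of 48 cases, each given as the PGCLC effect minus the EpiLC effect on the log2(TPM + 1) scale. In Ovol3KO all 6 members differed: Zeb1 by 1.5, Zeb2 by -1.47, Snai1 by -2.86, Snai2 by -1.47, Twist1 by -2.14 and Twist2 by -1.57. On this scale Twist2 had a larger effect in PGCLC in TKO (2.74), Ovol2b-Tg (2.54), Ovol2KO (2.35), Cdh1-Tg (2.16) and Ovol2a/2b-Tg (1.35). Mean Twist2 in EpiLC was 1.98 TPM in Cdh1-Tg and 2.37 in Ovol2a/2b-Tg, against 0.0916 in WT, which rests on 2 reads. In PGCLC these lines had 20.6 and 13.4 times the WT mean. On the same scale the effect was also larger for Snai1 in TKO (1.22), Zeb2 in Ovol2a/2b-Tg (1.06) and Snai2 in Cdh1-Tg (1.53). In linear TPM, however, mean Zeb2 in Ovol2a/2b-Tg was 9.72 times WT in EpiLC and 3.78 times WT in PGCLC.
Leaving out 1 library at a time, 10 of these 14 were called each time. Snai1 in TKO lost the call in 7 of 8 such fits (adjusted p up to 0.166), Snai2 in Cdh1-Tg in 6 of 8 (up to 0.283), Snai2 in Ovol3KO in 5 of 8 (up to 0.25), and Zeb2 in Ovol2a/2b-Tg without the second EpiLC WT library (0.97). Limma-voom on the recovered reads called none of the Twist2 differences except that in Ovol3KO.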

How the results depend on the processing

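Counts of calls among the members held within 1.5 times under most alternatives, and depth limits Zeb2, Snai2 and Twist2 most, with 0 to 11 reads in several WT libraries. With a pseudocount of 0.1 TPM, WT EpiLC against ESC had 1 call (0 as reported), the Ovol2 transgenic lines against each other 1 (3) and the difference in effect between stages 8 (14). Without the filter, and with limma without trend and robust, the transgenic lines against each other had 1. Quantile scaling gave 0 for TKO against Ovol2KO (1). Limma-voom gave 1 for WT EpiLC against ESC, 16 for lines in ESC (6) and 2 for TKO against Ovol2KO. Fits of only the groups compared gave 3 for lines in ESC, 1 for transgenic lines against TKO (2), 2 for TKO against Ovol2KO and 1 for transgenic lines against each other. Leaving out 1 library gave 0 (each time), 4 to 5, 4 to 7, 21 to 25 and 33 to 38 calls for the WT steps to EpiLC and PGCLC and the lines in ESC, EpiLC and PGCLC, 2 to 3 against TKO, 0 to 1 for TKO against Ovol2KO, 1 to 3 between transgenic lines, 32 to 33 for the step within lines and 10 to 15 for the difference in effect. TKO against Ovol2KO had 0 without the first Ovol2KO or the second TKO library, and the transgenic lines had 1 without the first Ovol2a-Tg library. In Ovol2a/2b-Tg the difference in effect reversed for Zeb2 (-0.37 with a pseudocount of 0.1, -0.99 by voom) and Twist2 (-0.23 with 0.1). By voom it also reversed for Zeb2 in TKO (-1.89) and Cdh1-Tg (-2.33). In linear TPM, mean Zeb2 was a larger multiple of WT in EpiLC than in PGCLC in TKO, Cdh1-Tg and Ovol2a/2b-Tg. The WT EpiLC mean of Zeb2 rests on 10 reads, and the cause of the reversals was not tested. Replicate numbers paired no samples (median correlation of deviations 0.006 in ESC, -0.002 in EpiLC and -0.01 in PGCLC); the replicate block, fitted without the EpiLC Ovol2b-Tg pair, gave 7, 19 and 36 calls for lines in ESC, EpiLC and PGCLC, and 13 for the difference in effect. Among comparisons that fit could give, the block changed the call of Snai2 in ESC Ovol2a-Tg only (1.05, limma adjusted p = 0.0426).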
